A study of Sus scrofa with 9 samples.

Results

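The miRNA profile of mature pig (Sus scrofa) sperm was described from 3 small RNA libraries, out of 9 in the series. All 3 were labelled as untreated sperm, and they carried no genotype, dose or time other than this. The study's methods took RNA from purified fresh sperm of Large White boars, and they did not state whether the 3 libraries came from separate boars or from pools, so that the spread between libraries given here may be technical. Every name with a value above 0 in at least 1 sperm library was a member. These were 806 of the 1313 names in the table, and the other names were listed at 0 in all 3 sperm libraries. The members were sorted by what their names state: species prefix, family, arm of the hairpin and isomiR suffix. No other group was compared.

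A miRNA is cut from a hairpin precursor, and either the left (5p) or the right (3p) arm of the stem can become the mature strand. The bases near its 5′ end, the seed, pair with target mRNAs, and miRNAs with a common seed form families that tend to share targets. Ends that are a few bases longer or shorter than the reference, or single base changes, give variants known as isomiRs. Mature sperm make almost no new RNA, so that their miRNAs are carried over from the testis or taken up on the way through the epididymis.

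The sources used here gave a sequence for 4 of the names, as the synthetic mimics that the study made. They are shown because they make plain what a name and its suffix stand for and how members of unlike abundance can share a seed. The capitals mark the seed, bases 2 to 8, in RNA letters from 5′ to 3′.
ssc-miR-125b: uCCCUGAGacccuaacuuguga
ssc-miR-125a_R-1: uCCCUGAGacccuuuaaccugu
bta-miR-2478_L-2: aUCCCACUucugacacca
mmu-miR-3968_L-3_1ss14AT: aUCCCACUccugacacca
The miR-125 sequences, homologues of lin-4, a regulator of developmental timing in worms, were 22 bases long and had the same seed. The other pair was 18 bases long and had another seed in common. Levels in CPM (a count divided by its library total and scaled to 1000000) of ssc-miR-125b were 9915, 9981 and 9819 in sperm 1, 2 and 3, and its mean ranked at place 24. With the same seed, ssc-miR-125a_R-1 was at 1099.7, 939.8 and 956 CPM, at place 90. The values of bta-miR-2478_L-2 were 20.7, 27.1 and 35.4 CPM, and those of mmu-miR-3968_L-3_1ss14AT were 9.75, 9.81 and 12.02 CPM. Of the names with 1 seed, ssc-miR-125b was thus far more abundant than ssc-miR-125a_R-1, and the other pair was rare in all 3 libraries, at places 313 and 430. In the sequence of mmu-miR-3968_L-3_1ss14AT, the second letter of the suffix was found at base 11, the named position less the bases of L-3, and not at the named position itself.

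The total counts were 1640492 in sperm 1, 1733419 in sperm 2 and 2455102 in sperm 3, and 668, 692 and 727 names were listed. A limit of 3 counts corresponded to 1.83, 1.73 and 1.22 CPM, which covers counting error only. Of the values above 0, 119 equalled 5 counts, 56 lay under 5 and 0 equalled 1, so that a listed 0 may also stand for a few reads. Names listed in all 3 libraries numbered 589, those in 2 libraries 103 and those in 1 library 114. Names missing from at least 1 library held 0.0425% of the counts together, and none of them exceeded a mean of 6.81 CPM.

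A few names held most of the profile. In each library, 11 names held 50% of the counts, and 58, 59 and 59 names held 90%. To reach 99% took 183, 195 and 196 names. The 10 leading names held 49.7% ± 0.159 (SD, n = 3), and the effective number of names, the inverse of the summed squared shares, was 27.9 ± 0.206. At a mean of at least 10000 CPM there were 23 names with 73.3% of the counts, and at a mean of at least 100 CPM there were 194 names with 99.03%.

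The most abundant name was ssc-miR-30d_R-2, with 103175, 103118 and 101673 CPM. It was followed by ssc-miR-191_R-1 with 68847, 68764 and 70928 CPM and by ssc-miR-34c with 71231, 66453 and 66992 CPM. The order of the latter pair depended on the library, since ssc-miR-34c was ahead in sperm 1 and ssc-miR-191_R-1 in sperm 2 and 3. The fourth was ocu-miR-34b-3p_1ss10CT, named after the rabbit miRNA, with 55297, 57659 and 57354 CPM. miR-34b and miR-34c are known from male germ cells and from cells with motile cilia, and male mice that lack them together with miR-449 are infertile.

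The let-7 miRNAs, which act in the timing of development and in differentiation, gave the next names. The values of ssc-let-7a were 46896, 48869 and 48976 CPM, and those of ssc-let-7i-5p_R+3 were 39414, 36960 and 37150.0 CPM. Between these and the end of the first 12 names, the means were 32031 ± 800 CPM for ssc-miR-92a, a member of the miR-17-92 group, 28554 ± 625 CPM for cfa-miR-25 and 27838 ± 709 CPM for ssc-miR-10b, whose gene lies among the Hox genes. The last of them were ssc-let-7g at 25079 ± 132.5 CPM, ssc-miR-26a at 24159 ± 166 CPM and ssc-miR-21-5p_R+1, known from growth and from spermatogonial stem cells, at 23683 ± 157 CPM (SD, n = 3 for each). The neighbours cfa-miR-25 and ssc-miR-10b had overlapping values in the 3 libraries, as their ranges were 27952 to 29200 and 27387 to 28655 CPM. The ranges of let-7g, miR-26a and miR-21-5p did not overlap one another.

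**Figure D1:**
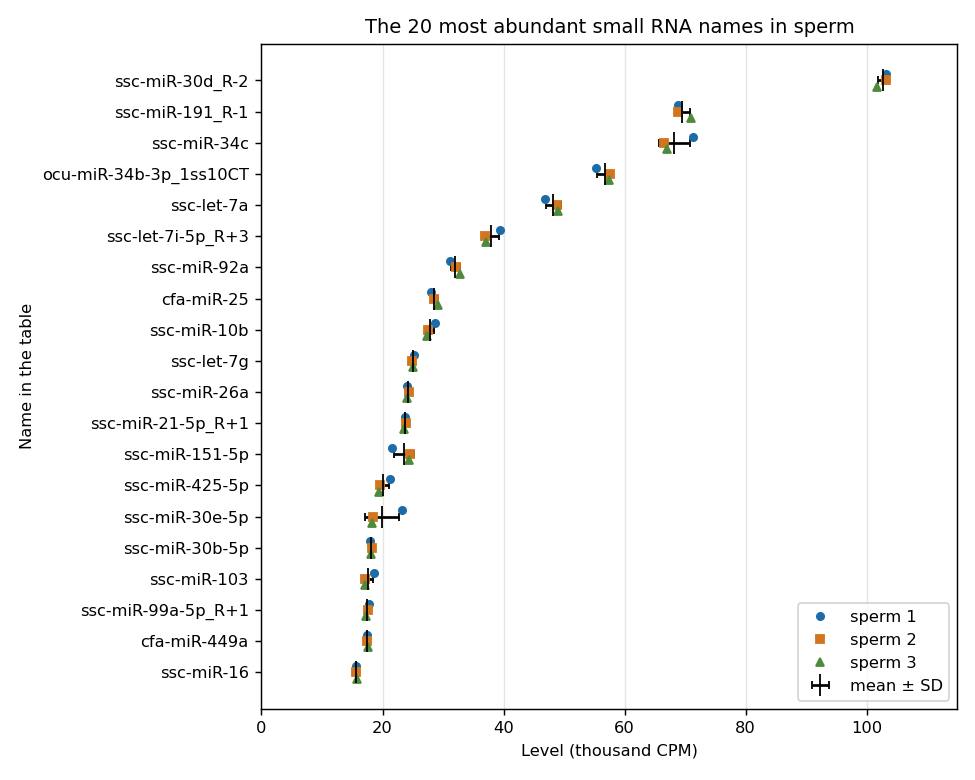
Level (CPM divided by 1000, linear axis) of the 20 names with the highest mean in sperm, 1 point per library, with a tick at the mean and a line for its SD (n = 3). ssc-miR-30d_R-2 stands apart at 101673 to 103175 CPM, the points of ssc-miR-191_R-1 and ssc-miR-34c overlap, and those of ocu-miR-34b-3p_1ss10CT lie below both.

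By the number in the name, the names outside the PC class, described further on, fell into 266 families. These were not formed by seed, so that numbers with a common seed, such as miR-34 and miR-449, were counted apart. The order of the families given here holds for numbers, and by seed it could differ. The first 3 families, miR-30, let-7 with miR-98, and miR-34, held 43.1% ± 0.425 (SD, n = 3) of all counts, the first 12 held 71.3% ± 0.185 and the first 20 held 82.0% ± 0.140. There were 18 families at 1% or more and 156 families under 0.01%.

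The miR-30 family held 15.8%, 15.2% and 15.0% of the counts, highest in sperm 1, with 10 names. Within it, ssc-miR-30d_R-2 made up 67.1% of the counts. The next were ssc-miR-30e-5p with 12.9%, ssc-miR-30b-5p with 11.8% and ssc-miR-30c-5p with 6.91%, and ssc-miR-30a-5p_R+2 and ssc-miR-30e-3p_1ss22CT were each under 1%. Of these, ssc-miR-30e-5p differed most between libraries, as its share of the family was 14.7% in sperm 1 and 12.1% and 12.2% in sperm 2 and 3.

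The let-7 and miR-98 family held 14.3%, 14.4% and 14.4% of the counts with 22 names, and the libraries were almost level. Within it, ssc-let-7a held 33.7%, ssc-let-7i-5p_R+3 26.3%, ssc-let-7g 17.5%, ssc-let-7f-5p 11.0% and cfa-let-7b 6.22%. The members ssc-let-7d-5p and ssc-let-7c were at 1.69% and 0.964%. The remaining members with at least 100 CPM, which were mmu-let-7j_1ss8TG, ssc-let-7d-3p, ssc-let-7e, ocu-let-7a-3p_1ss22CT, ssc-miR-98, ggo-let-7a_L+1 and chi-let-7a-3p_R-1_1ss9TC, lay between 0.0952% and 0.751%. The let-7 family was thus spread over several letters, whereas a single letter led in miR-30.

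The miR-34 family held 13.5%, 13.3% and 13.3% of the counts with 9 names. It had a pair of leaders, ssc-miR-34c with 50.9% and ocu-miR-34b-3p_1ss10CT with 42.5% of its counts. After them came mmu-miR-34c-3p_L-1_1ss16AG with 3.77%, mdo-miR-34b-5p with 2.01%, cfa-miR-34b_R+1 with 0.606% and mdo-miR-34b-5p_R+1_1ss23TA with 0.180%. The member ssc-miR-34a was at a mean of 10.6 ± 2.76 CPM (SD, n = 3), against 68226 ± 2617 CPM for ssc-miR-34c. Within the counts of pig names alone, and not of all names, miR-34 held 8.43%. This share leaves out all of its miR-34b names and mmu-miR-34c-3p_L-1_1ss16AG, which carried other species' prefixes. Together with miR-449, miR-34 held 15.2% ± 0.120 of all counts. This sum was formed by the number in the name and includes names of both arms, ocu-miR-34b-3p_1ss10CT among them. It therefore cannot be read as the share of a single seed.

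The miR-191 family was almost a single name, ssc-miR-191_R-1, with 99.8% of its counts, beside ocu-miR-191-3p_R-2_1ss6GA. It held 6.96% ± 0.123 of the library (SD, n = 3). The miR-92 family held 4.07% ± 0.110, of which ssc-miR-92a made up 78.7%, ssc-miR-92b-3p_R-2 11.8%, mmu-miR-92a-3p_R+1 7.38% and mmu-miR-92a-3p_R+2 2.10%. The next families were miR-10 with 2.91% ± 0.0719, miR-25 with 2.86% ± 0.0626, miR-151 with 2.68% ± 0.174 and miR-26 with 2.53% ± 0.0201. They were followed by miR-21 with 2.37% ± 0.0157, miR-425 with 2.05% ± 0.0995 and miR-449 with 1.86% ± 0.0117. Among these smaller families, miR-151 was lowest in sperm 1, with 2.48% against 2.79% and 2.77%, and miR-425 was highest in sperm 1, with 2.16% against 2.00% and 1.98%.

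Names listed on more than 1 row had been summed. Counting each such name once took miR-92 from 4.07% to 2.69%, let-7 from 14.4% to 12.4% and miR-34 from 13.4% to 14.8%. The order of let-7 and miR-34 turned with it, and miR-30 was first either way.

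**Figure D2:**
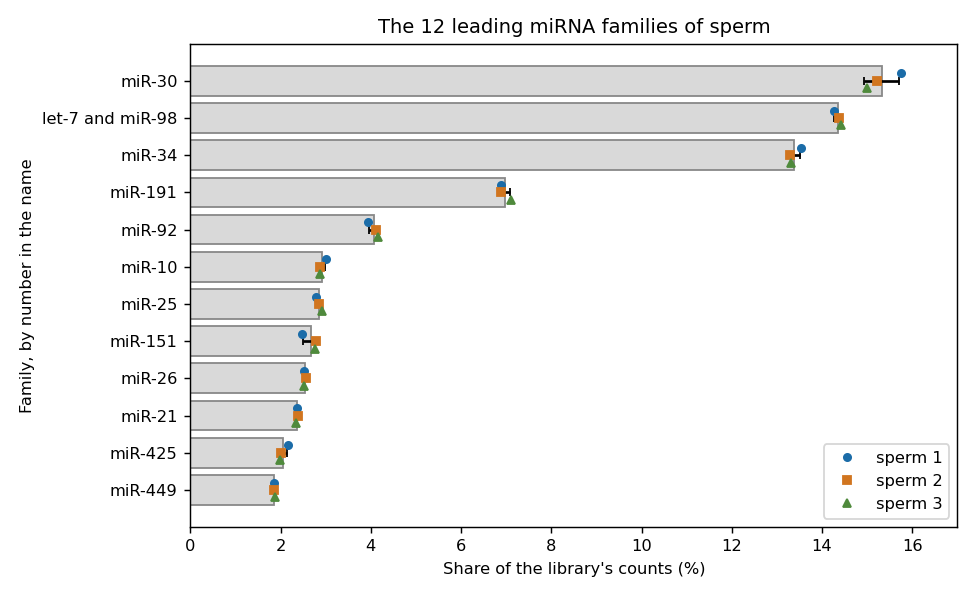
Share of the library's counts (percent, linear axis) for the 12 leading families, 1 point per sperm library and a bar at the mean with its SD (n = 3). The first 3 families lie between 13.3% and 15.8% and the fourth, miR-191, near 7%.

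A RefSeq gene table of the pig gave a single locus for names that held 61.3% of the counts, several loci for 29 pig names with 16.7% and none for 70 pig names with 2.94%. On Sscrofa11.1, MIR30D and MIR30B lay within 10000 bases of each other at chr4:6948669-6952869, and their 3 names held 12.1% ± 0.0915 of all counts (SD, n = 3). MIR425 and MIR191 lay at chr13:31654994-31655563 with 9.001% ± 0.108. A further 6.82% ± 0.262 came from ssc-miR-34c (MIR34C-1, chr9:39280278-39280357). Among pig names with a single locus, these 3 places therefore came first.

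Smaller neighbourhoods were MIR99A with MIRLET7C at chr13:181302483-181303302, with 1.89% ± 0.0241, and the sensory-organ cluster MIR183, MIR96 and MIR182, with 0.848% ± 0.0901. The names with a single locus in the miR-17-92 cluster at chr11:60734656-60735179, miR-17, miR-18a, miR-19a and miR-20a, held 0.586% ± 0.0606. Among pig names with a single locus, chromosomes 4 and 13 held 15.5% and 15.3% of all counts, and 9 followed with 8.51%. Pig names with several loci, which held 16.7%, and names of other species were assigned to no chromosome, so that the totals of the chromosomes are incomplete. Within the same limit, the X chromosome, which is largely silenced in male meiosis, had 23 loci and 28 names with 0.372% ± 0.000556. Of these names, ssc-miR-106a_R-1_1ss1AC, had the same counts as ssc-miR-17-5p of chromosome 11 in every library, with 1256 ± 116 CPM (SD, n = 3), so that the place of these reads is uncertain.

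By name prefix, pig names (ssc) held 81.4%, 80.7% and 80.7% of the counts, with 37.5% of the names. Names of other species held 17.8%, 18.5% and 18.5% with 335 names, and PC names, whose prefix the sources used here do not explain, held 0.820%, 0.881% and 0.847% with 169 names. In each class sperm 2 and 3 were nearer to each other than either was to sperm 1, apart from PC. The dog (cfa) gave 6.82% ± 0.0431 and the rabbit (ocu) 6.08% ± 0.149, and the mouse (mmu), the human (hsa) and pal followed with 1.86%, 1.11% and 0.532%.

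The pig class was led by the miR-30d, miR-191 and miR-34c names given above, and these 3 held 29.7% of it. Among names of other species, ocu-miR-34b-3p_1ss10CT held 31.1% of the class, cfa-miR-25 15.6% and cfa-miR-449a, of the same seed family as ssc-miR-34c, 9.58%. For 77 names of other species with 2.08% of the counts, the same miRNA was also listed under a pig name. For 37 names with 7.71% only the family was, and for the rest, with 8.46%, the family had no pig name listed in sperm. These names, miR-34b, miR-25 and miR-449a among them, were thus mostly not second names for a miRNA already listed under ssc. The PC class was led by PC-3p-835_6880 with 4045, 4102 and 3975 CPM, 47.6% of the class. The next, PC-3p-2221_2265 and PC-3p-3016_1576, were at 787 ± 99.97 and 686 ± 17.001 CPM (SD, n = 3).

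Names with no arm written held 60.9% ± 0.148 of the counts, among them the leaders ssc-miR-30d_R-2, ssc-miR-191_R-1 and ssc-miR-34c. Names on the 5p arm held 25.05%, 24.7% and 24.5%, and names on the 3p arm 14.0%, 14.7% and 14.6%. Of the counts with an arm written, 63.2% ± 0.874 were on 5p (SD, n = 3). This share was 79.6% ± 0.596 among pig names, 15.8% ± 0.114 among names of other species and 21.8% ± 0.268 among PC names. A single name, ocu-miR-34b-3p_1ss10CT, held 39.4% of all 3p counts, and ssc-miR-28-3p_R+1 and ssc-miR-22-3p followed with 8.31% and 5.73%. The 5p class was led by ssc-let-7i-5p_R+3 with 15.3%, ssc-miR-21-5p_R+1 with 9.58% and ssc-miR-151-5p with 9.51%.

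**Figure D3:**
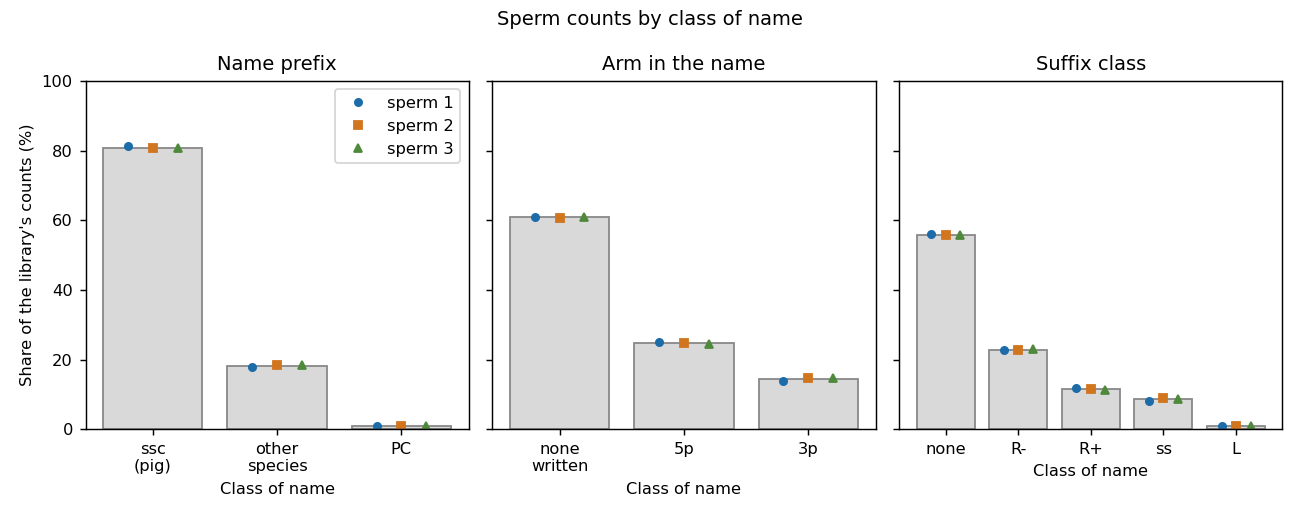
Share of the library's counts (percent, linear axis) by name prefix, by arm and by isomiR suffix class, 1 point per sperm library and a bar at the mean with its SD (n = 3). The libraries lie within 1 percentage point of each other in every class, with sperm 1 highest for pig names and for 5p.

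Arms written as p5 and p3 were read as 5p and 3p throughout. Both arms were written for 64 hairpins. Of their counts with an arm, at least 90% lay on 5p in 22 hairpins and on 3p in 18, and 24 were between. In the abundant hairpins the arm preference was held closely. let-7i, miR-30b, let-7f and miR-99a were 99.9%, 99.9%, 99.8% and 99.6% 5p, miR-425 was 98.0% ± 0.241 and miR-30e 96.7% ± 0.460, and miR-151 was 88.8% ± 0.447 (SD, n = 3). Of the 8 hairpins with the most counts, miR-34b alone was on the other side, with 5.56%, 4.74% and 4.74% on 5p. These were 5338.5, 4977.5 and 7001.5 counts on 5p against 90714, 99947 and 140810 on 3p. miR-34b and miR-151 also had names without an arm, which these shares leave out.

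Some hairpins, chosen after their values were seen, had counts on both arms. They were miR-28 with 15.8% ± 1.15 on 5p, miR-130b with 41.0% ± 1.67, miR-1285 with 57.7% ± 0.631, let-7d with 71.4% ± 1.73 and miR-423 with 81.6% ± 1.39. Of these, miR-1285 alone had its arms written as p5 and p3, so that its names may not stand for known mature strands. The share of let-7d was 73.2%, 71.2% and 69.8%, with Wilson 95% intervals of 72.0% to 74.4%, 70.1% to 72.4% and 68.8% to 70.8%, so that sperm 1 and sperm 3 differed by more than counting error. Over the 49 hairpins with at least 100 counts and no name without an arm, the median SD of the 5p share was 1.03 percentage points. Hairpins of few counts varied far more, such as miR-205b with 32.5% ± 32.4.

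**Figure D4:**
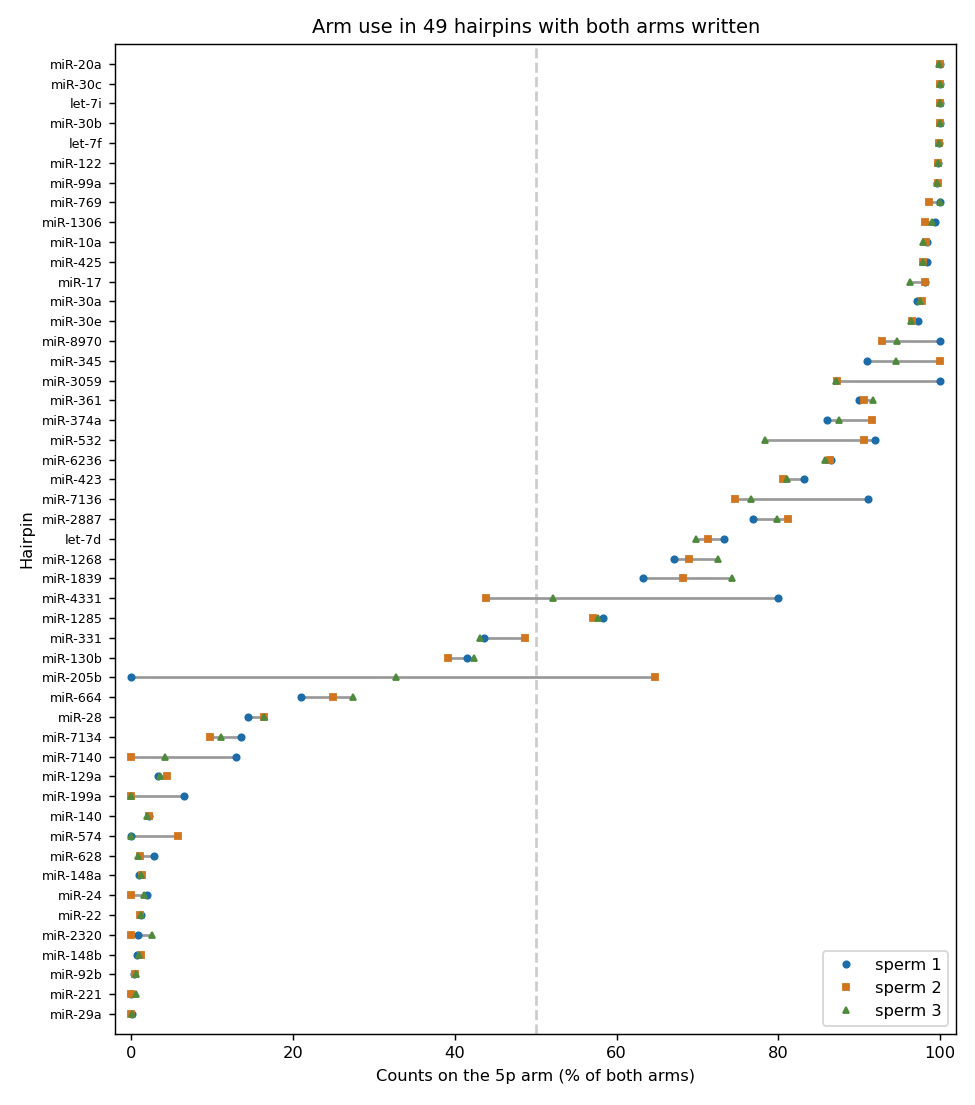
Percent of a hairpin's counts on the 5p arm (linear axis, 0 to 100) for the 49 hairpins with both arms written, at least 100 counts and no name without an arm, 1 point per sperm library and a line from the lowest to the highest. let-7i, miR-30b, let-7f and miR-99a sit at the 5p end, let-7d, miR-1285 and miR-130b lie between the ends, and miR-205b has the longest line.

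Suffixes were read in their usual sense, as the sources used here do not define them: L is the 5′ end, R the 3′ end, a plus or minus sign gives bases gained or lost against the reference, and ss is a substituted base. For 455 of 503 mature names, with 96.3% of the counts, only 1 name was listed. The shares below are therefore shares of counts under names that carry a suffix, and not shares of reads that carry the variant.

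Names without a suffix held 55.9% ± 0.225 of the counts, with 418 names that include all 169 PC names. Names with a shorter 3′ end (R-) held 22.8% ± 0.115, and names with a longer one (R+) 11.6% ± 0.239. Substitution names (ss) held 8.26%, 8.89% and 8.79%, lowest in sperm 1, and names changed at the 5′ end (L) 1.03%, 1.06% and 1.05%. A changed 5′ end moves the seed, and the L names were the smallest class. Counting L names that also had a substitution, names with a changed 5′ end held 2.36% ± 0.143 of the counts (SD, n = 3).

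The classes with a suffix rested on few names. In R-, ssc-miR-30d_R-2 and ssc-miR-191_R-1 held 75.4%, and ssc-miR-186-5p_R-1 was next with 6877 ± 103 CPM. In R+, ssc-let-7i-5p_R+3, ssc-miR-21-5p_R+1 and ssc-miR-99a-5p_R+1 held 68.3%. In the class without a suffix, ssc-miR-34c, ssc-let-7a and ssc-miR-92a held 26.6%, so that this class was the least concentrated. In L, ptr-miR-203_L-1R+1, named after the chimpanzee form of a miRNA of the epidermis, held 43.0% with 4622, 4515 and 4355 CPM. After it came ssc-miR-29a-3p_L-1R-1 with 2819 ± 77.3 CPM and ssc-miR-2320-3p_L+1R+1 with 468 ± 14.1 CPM (SD, n = 3).

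In ss, ocu-miR-34b-3p_1ss10CT held 65.7% of the counts, mmu-miR-34c-3p_L-1_1ss16AG 5.80% and hsa-miR-1246_L-1_1ss17AT 5.66%. All other ss names made up 1.97% of the library. Of the substitution counts, 8.25% of the library came from 127 names of other species and 0.398% from 27 pig names. A substitution in a name of another species marks a difference from that species' reference, and whether it was a base of the pig genome was not tested. Substitutions at a named position from 2 to 8 were in 35 names with 0.485% ± 0.0203 of the counts, and the other 119 names held 8.16% ± 0.320.

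Counted over all names, those with no R in the suffix, PC names among them, held 64.1% of the counts. Names with a 3′ end 2 bases shorter held 12.1% and those 1 base shorter 11.7%. Names 1 base longer held 7.81% and those 3 bases longer 3.91%. The values at 2 bases shorter and at 3 bases longer rested mainly on ssc-miR-30d_R-2 and ssc-let-7i-5p_R+3. At the 5′ end, names with a loss of 1 base held 1.80% and names with a gain of 1 base 0.393%.

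Known markers were used to check the label. The list for germ cells with cilia or flagella had 4 of 5 members listed, all at 100 CPM or more, and its summed level was 153743, 151499 and 151901 CPM. Within it miR-34c was at 73240.2 ± 2283, miR-34b at 60578 ± 1017, miR-449a at 17817 ± 113 and miR-449b at 746 ± 4.55 CPM (SD, n = 3, all isomiRs and arms summed), and miR-449c had no name in the table. The list for spermatogonia and proliferating cells, miR-17-92 and its relatives with miR-21, miR-221, miR-222 and miR-146, had all 13 members listed. Its sum was 109942 ± 588 CPM, mainly from miR-92a, miR-25 and miR-21, which many other cells also carry. The list for the X-linked testis cluster was the range of numbers from miR-506 to miR-514, and membership of each number in the cluster was not checked. It had 5 of 9 numbers listed, and its sum was 148 ± 7.49 CPM. The numbers miR-510 to miR-513 had no name in the table, so that their level in sperm is not known from it.

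Markers of blood were low. The white blood cell list had 4 of 4 members listed, none at 100 CPM, with sums of 108, 112 and 125.9 CPM, of which miR-142 gave 92.1 ± 1.39 and miR-223 11.8 ± 3.52 CPM. The red blood cell list (miR-451, miR-144, miR-486) had 3 of 3 listed, with sums of 201.8, 159.8 and 259.9 CPM. Its sum was lowest in sperm 2, where miR-451 was at 44.4 CPM, against 74.4 CPM in sperm 1 and 101.4 CPM in sperm 3. There miR-144, a small part of the sum in each library, was listed at 0.

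Markers of epithelium were higher, with all 7 listed and 4 at 100 CPM or more, and sums of 12447, 12214 and 11722 CPM. Its main members were miR-203 with 5396 ± 122.3, miR-200b with 4071 ± 168, miR-200c with 1888 ± 89.2 and miR-200a with 619 ± 17.4 CPM, whereas miR-205, miR-429 and miR-141 were under 100 CPM. The neuron list had 4 of 4 listed and a sum of 9933 ± 158 CPM, nearly all from miR-9 with 9383 ± 174 CPM. Its other members were miR-129 at 535 ± 24.3, miR-124 at 11.0 ± 0.588 and miR-137 at 4.55 ± 5.45 CPM, far below miR-9. The liver miRNA miR-122 was at 2049, 2026 and 2067 CPM.

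The remaining lists summed to about 100.1 CPM or less. Skeletal muscle had 2 of 3 listed (miR-1 and miR-206, with miR-133 at 0) and 14.5 ± 2.29 CPM in sum. Smooth muscle and stroma had miR-143, miR-145 and miR-199 listed and no name for miR-214, with 100.1 ± 11.3 CPM. The endothelial miR-126 was at 7.31, 0 and 4.89 CPM, and miR-202, known from Sertoli and granulosa cells, at 11.6, 23.7 and 10.2 CPM. Of the early embryo list, miR-371 and miR-302 were listed at 0 in all 3 libraries and miR-372, miR-373 and miR-367 had no name in the table. The label therefore stood beside abundant miR-34 and miR-449, low blood markers and a low sum of the X-linked testis list, part of which had no name in the table. That sum, 148 ± 7.49 CPM, lay below that of the red blood cell list, 207 ± 50.2 CPM (SD, n = 3). The epithelial, miR-9 and miR-122 counts were measured beside these, and their part in the composition was not tested.

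The libraries were close but not equal. Across all 806 names, Spearman's rho of CPM was 0.929 for sperm 1 with 2, 0.936 for 1 with 3 and 0.9501 for 2 with 3, as a description over names that are not independent. Over the 194 names at 100 CPM or more it was 0.995, 0.997 and 0.998. The share of counts that would have to move between names to make the profiles equal was 2.77%, 2.95% and 0.861%. Counts differed by more than sampling noise in every pair, as chi-square per degree of freedom was 12.1 and 12.7 for the pairs with sperm 1 and 2.40 for sperm 2 with 3. No library was therefore an exact copy of another in its counts. Whether the libraries came from separate RNA samples cannot be read from this.

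Sperm 1 stood apart. It was the library farthest from the median of the 3 for 63.9% of the 194 names, against 33 names for sperm 2 and 37 for sperm 3. The median absolute log2 ratio over these names was 0.13 between sperm 1 and either other library and 0.034 between sperm 2 and 3. Its ratio to the mean of the others had a median of 0.988 over 117 pig names, 0.927 over 70 names of other species, 1.03 over 31 R+ names and 0.878 over 27 ss names. Sperm 1 also had the smallest total, with 1640492 counts against 1733419 in sperm 2 and 2455102 in sperm 3. Whether library size had a part in its distance was not tested. When each library was thinned to 1640490 counts, 668, 692 and 726 names were listed. Only 56 of the 2087 values above 0 lay under 5 counts, so that such thinning takes almost no name to 0. It cannot show whether the number of names listed depended on depth.

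The spread of a name fell with its level. The median coefficient of variation (CV) over libraries was 2.26% for the 23 names at 10000 CPM or more, 4.22% from 1000 to 10000 CPM, 7.28% from 100 to 1000 CPM, 18.4% from 10 to 100 CPM and 86.6% from 1 to 10 CPM. Counting error alone would give 0.466%, 1.42%, 3.75%, 13.7% and 36.9%, which was below the measured CV in each band. In the lowest band only 154 of 313 names were listed in all 3 libraries. Its CV thus includes values listed at 0, which may stand for a few reads and which the counting error leaves out. Of the 194 names, 83 had a CV under 5%, 156 under 10% and 5 over 20%, with a median of 5.60%. Without sperm 1, the median was 1.64%.

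The 5 most variable names were ssc-miR-374a-5p_R-1, mmu-miR-5126_L-1_1ss18CT, mdo-miR-34b-5p_R+1_1ss23TA, mmu-let-7j_1ss8TG and bta-mir-2904-3-p5_1ss20TC. ssc-miR-374a-5p_R-1 was at 97.5 CPM in sperm 1 and at 156 and 168 CPM in sperm 2 and 3, a CV of 26.8%. mmu-let-7j_1ss8TG went the other way, with 1351 CPM in sperm 1 and 929 and 1001 CPM in the others, and so did mdo-miR-34b-5p_R+1_1ss23TA, with 305, 211 and 218 CPM. For mmu-miR-5126_L-1_1ss18CT and bta-mir-2904-3-p5_1ss20TC the values were highest in sperm 2, at 229 and 122.3 CPM. The steadiest were ssc-miR-28-3p_R+1 with 11957, 11986 and 11970 CPM, ssc-let-7c with 1383, 1389 and 1384 CPM and ssc-miR-101_R+1 with 615, 611 and 613 CPM.

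**Figure D5:**
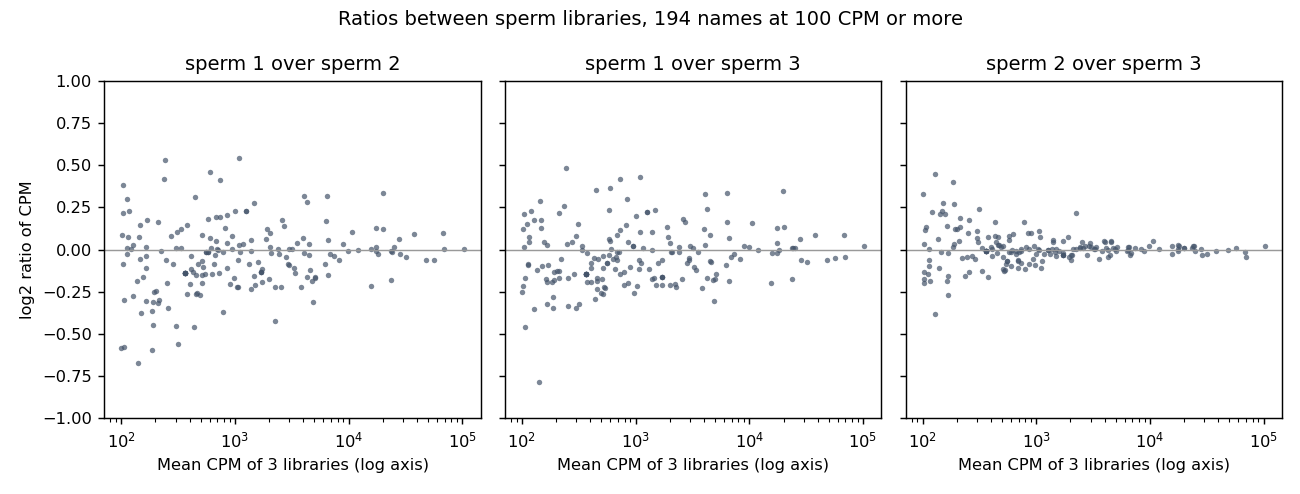
log2 ratio of CPM between the libraries of each pair (vertical axis) against the mean CPM of 3 libraries (log axis), 1 point for each of the 194 names at a mean of at least 100 CPM. The pairs with sperm 1 spread more widely than the pair of sperm 2 and 3, whose median absolute log2 ratio was 0.034 against 0.13.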

How the data were processed

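Total RNA of purified sperm was ligated to adapters at both ends, reverse transcribed, amplified by PCR and selected on a gel. The authors deposited estimated counts of reads per named small RNA, marked raw by the file headers, not normalized and in part not whole. The submitters' processing notes name the build Sscrofa11.1. The aligner and miRNA caller were not given in the sources used here.

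Rows of 105 repeated names, with identical values in every case, were summed, after which the share of values that were not whole (tolerance 0.03) fell from 57.8% to 8.80%. They held 19.4% of the counts. Different names with identical counts numbered 210, with 1.24% of the counts. CPM, shares, Wilson 95% intervals and CVs were computed in Python 3.11.15 with pandas 2.3.3 and scipy 1.17.1, and correlations on log2(CPM + 1). TMM factors from edgeR 4.0.16 (R 4.3.3) served as an alternative scaling only. No molecular identifiers were named in the sources used here, so that reads copied by PCR could not be told from separate molecules, and the intervals and floors describe counting error alone. Chi-square used names with at least 20 counts in a pair. Calculations were tested on simulated data. Loci were matched by symbol to a RefSeq gene table of the same build.

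Each suffix was read in the order ss, L, R+, R-. The names given were the 12 highest, the 12 leading families with members at 100 CPM in the first 5, the 3 leaders of each prefix and suffix class, 8 hairpins, the 5 largest and 3 smallest CVs, and all marker lists. The members and lists were chosen with earlier results of these data known. No group was compared and no test between groups was made.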

Additional observations from a re-analysis of the deposited data

How the results depend on the processing

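A shift was set against the SD over libraries or pairs, or, for the number of names that hold 90% of the counts, against a factor of 1.5, and any shift of the median CV was counted. Over 23 results, 138 values under alternative settings stayed within this limit and 68 went past it, and in 8 of these the value changed by over 1.5 times. Counting each repeated name once gave 79.6% for pig names, 61.8% for 5p among counts with an arm, 52.0% for names without a suffix, 16.4% for miR-30 and an effective number of 25.1. Leaving out PC names gave 64.1% for 5p, 55.5% for no suffix, an effective number of 27.5 and a median Spearman's rho of 0.961. Leaving out names of miR-2887, miR-2904, miR-6236 and miR-6240 gave 81.4% for pig names, 55.65% for no suffix and 27.6. With pig names alone, as shares of the counts of pig names, no suffix held 58.45%, miR-30 18.9%, ss 0.493% and L 0.557%. Counting names with identical counts once gave an effective number of 27.5 and a rho of 0.955, and keeping names with at least 10 counts in each library a rho of 0.979. Leaving out each library in turn gave a rho from 0.929 to 0.9501, the higher without sperm 1. The same omissions gave 80.7% to 81.0% for pig names, 62.67% to 63.45% for 5p, 55.8% to 56.0% for no suffix, 15.1% to 15.5% for miR-30 and 27.86 to 28.05 for the effective number. Reading L before ss took L to 2.36%, and chi-square per degree of freedom had a median of 12.1, or 18.99 over names with at least 100 counts and 2.40 without sperm 1. Seed families and arms from the hairpin sequences were not run, as mature sequences were at hand for only 4 names and hairpin sequences were not used here. No paired analysis was possible because only 1 group was described and no test was made. Names from 1 to 10 CPM had a median CV of 86.6%, where counting error alone would give 36.9%. This CV includes values listed at 0, which may stand for a few reads.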
